A study of Mus musculus with 2 samples.

Results

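The C-type lectin receptors of myeloid cells were taken as 10 genes by symbol: Mgl2, Clec10a, Cd209a, Cd209d, Cd209f, Cd209g, Clec4d, Clec4e, Clec4n and Clec7a. Of these, 9 were matched among the 28625 gene symbols counted. The expression of Clec7a was not analysed here, only its promoter window. The genes were followed through 2 single-cell libraries of RNA 3' ends, made in droplets, from the tibialis anterior, a muscle at the front of the lower leg of C57B/6 mice 12 weeks old on standard chow. In 1 library the muscle was labelled an uninjured control, and in the other it was taken 24 hours after an injection of 1.2% barium chloride, a salt that kills muscle fibres. The treatment text of both samples names that injection, so it cannot be said whether the control muscle was injected. Nor do the labels say how many animals stand behind each library. The comparison asked which of these receptors were counted in which cells of the muscle before and 1 day after injury.

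C-type lectins are surface or secreted proteins whose lectin domain binds sugars, often with calcium, or lipids and proteins. On macrophages and dendritic cells they take up glycoproteins and sense microbes and dead cells. Mgl2 and Clec10a encode the paired mouse receptors for galactose-type sugars, known from macrophages and dendritic cells that live in connective tissue. The Cd209 genes are the mouse relatives of DC-SIGN, which binds mannose and fucose. Clec4d, Clec4e (also called Mincle) and Clec4n (Dectin 2) bind microbial glycolipids or mannans, and Clec4e also binds a protein released by dying cells. These receptors signal through the Fc receptor gamma chain, encoded by Fcer1g, and then through the kinase Syk and the adaptor Card9.

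The members lie in 3 groups of neighbouring protein-coding genes in the GRCm38 build. On chromosome 11 the annotation places Mgl2 at chr11:70130329-70137550 and Clec10a at chr11:70156197-70170834, both on the plus strand. On chromosome 8 it places Cd209a at chr8:3743397-3748984, Cd209d at chr8:3871824-3878555 and Cd209f at chr8:4102787-4105835, all on the minus strand, and Cd209g at chr8:4134098-4137707 on the plus strand. On chromosome 6 it places Clec4n at chr6:123229843-123247021 and Clec4d at chr6:123262111-123275265 on the plus strand, and Clec4e at chr6:123281789-123289870 on the minus strand.

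RefSeq promoter windows of GRCm38.p6, with 250 bases before and 50 from the start, were found for 8 of the 10 members. Those of Cd209f (chr8:4105715-4106014, minus strand) and Cd209g (chr8:4134486-4134785, plus strand) are printed because they share 1 identical run of 180 bases, given in capitals. The next longest run shared by any pair of member promoters was 12 bases. The annotation starts Cd209g at 4134098, so its RefSeq window lies inside the annotated gene, and the sources differ on its start.
Cd209f: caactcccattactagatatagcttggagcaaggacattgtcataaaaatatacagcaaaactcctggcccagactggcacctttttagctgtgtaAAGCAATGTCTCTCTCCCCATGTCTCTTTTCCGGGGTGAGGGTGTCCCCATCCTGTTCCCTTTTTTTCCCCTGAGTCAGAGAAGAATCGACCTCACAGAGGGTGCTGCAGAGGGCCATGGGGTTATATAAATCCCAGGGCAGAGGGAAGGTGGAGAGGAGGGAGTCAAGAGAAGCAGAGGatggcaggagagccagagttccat
Cd209g: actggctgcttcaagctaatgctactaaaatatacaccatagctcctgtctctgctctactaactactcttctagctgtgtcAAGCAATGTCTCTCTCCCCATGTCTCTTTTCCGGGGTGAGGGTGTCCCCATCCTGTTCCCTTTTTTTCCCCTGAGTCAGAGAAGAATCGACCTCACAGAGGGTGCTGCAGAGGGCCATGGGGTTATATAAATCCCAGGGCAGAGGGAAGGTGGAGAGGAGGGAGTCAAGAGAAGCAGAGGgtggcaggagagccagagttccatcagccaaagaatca

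The Cd209f and Cd209g transcripts were 90.3% identical over 1181 aligned columns, and 84.0% identical over their last 300 bases, the end that 3' libraries read. Reads could be split or dropped between these copies, which was not tested, so their separate levels are less certain. The motif of the factor AP-1, TGACTCA, matched inside the shared run of both genes on the opposite strand, and 5.20% of the 32851 promoter windows held it on either strand.

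The windows of Clec4d (chr6:123261857-123262156, plus strand) and Clec4e (chr6:123289822-123290121, minus strand) are shown because these neighbouring genes had nearly the same pattern over cells. Capitals mark every match, on either strand, to TTNNGNAA, a core of C/EBP sites, or GAGGAA, a core of PU.1 sites. Both factors are known from myeloid cells.
Clec4d: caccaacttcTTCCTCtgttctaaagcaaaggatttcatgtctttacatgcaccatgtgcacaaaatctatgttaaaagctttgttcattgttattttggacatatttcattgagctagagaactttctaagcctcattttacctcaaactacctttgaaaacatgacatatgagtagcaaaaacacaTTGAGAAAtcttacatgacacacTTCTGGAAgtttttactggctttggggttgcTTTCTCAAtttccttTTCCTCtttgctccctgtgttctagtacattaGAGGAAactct
Clec4e: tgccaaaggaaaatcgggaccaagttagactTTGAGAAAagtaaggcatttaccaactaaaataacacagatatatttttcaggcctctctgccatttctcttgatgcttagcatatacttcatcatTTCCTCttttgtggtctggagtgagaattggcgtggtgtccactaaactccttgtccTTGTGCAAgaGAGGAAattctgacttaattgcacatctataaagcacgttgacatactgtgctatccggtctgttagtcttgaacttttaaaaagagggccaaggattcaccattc

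TTNNGNAA was in the windows of 4 of the 8 members (Clec4d, Clec4e, Cd209a and Mgl2) and in 40.7% of all windows. GAGGAA was in 5 of the 8 (Clec4d, Clec4e, Clec7a, Cd209d and Mgl2) and in 28.3% of all windows. These matches are letters in a window, not shown to be bound. The ETS core GGAAGT, also searched on both strands, was in 4 of the 8, in Clec4d overlapping a TTNNGNAA match, and in 23.8% of all windows.

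Each captured 3' end carried a unique molecular identifier (UMI) and was counted as 1, so levels were not divided by gene length. The libraries held 22994502 UMIs in 5581 barcodes (uninjured) and 39014762 UMIs in 4489 barcodes (injured), with medians of 3237 and 7282 per barcode. Cells kept numbered 5139 and 4260, and 33 barcode sequences occurred in both libraries. All 16575 Xist UMIs were in the uninjured library and all 4456 Y-linked UMIs in the injured library, so sex and condition cannot be told apart. With 1 library a group no difference has a replicate check and no test of injury was possible. Intervals in parentheses are at 95% and cover counting error only. Levels are CPM, the UMIs of a gene per 1000000 UMIs of the cells named. Differences were called by size alone, at 2-fold, among genes with at least 20 UMIs.

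Cells were named from markers that include none of the members, and the members and the other listed C-type lectins were left out of the clustering, so their levels were not used to name a cell. The markers do include lectin-like receptors outside those lists, Klrd1 for dendritic and Klrb1c and Klra8 for natural killer cells. Myeloid-like cells (monocyte and macrophage-like, dendritic-like and neutrophil-like) made up 2.70% of uninjured cells (139 of 5139) and 69.9% of injured cells (2979 of 4260). They held 93.7% (92.2 to 95.0) of the 1273 UMIs of the 9 receptors in the uninjured library and 98.0% (97.8 to 98.1) of the 41400 in the injured library. Most UMIs of these receptors thus lay in myeloid-like cells in both libraries. The lowest share in a well counted gene was 87.7% (84.4 to 90.5) for Mgl2 in the uninjured library. The members were chosen with earlier results of these data known, so these shares are no test of their label. Clec4d, Clec4e and Clec4n gave most of the injured sum, with 15654, 16941 and 6651 UMIs. The myeloid-like cells fell into 14 sub-clusters, named below by number, marker list and leading genes. The plot of levels by group of cells shows 2 patterns: 6 receptors were high in the uninjured resident macrophage-like cells, and 3 were high in the injured myeloid sub-clusters.

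**Figure D1:**
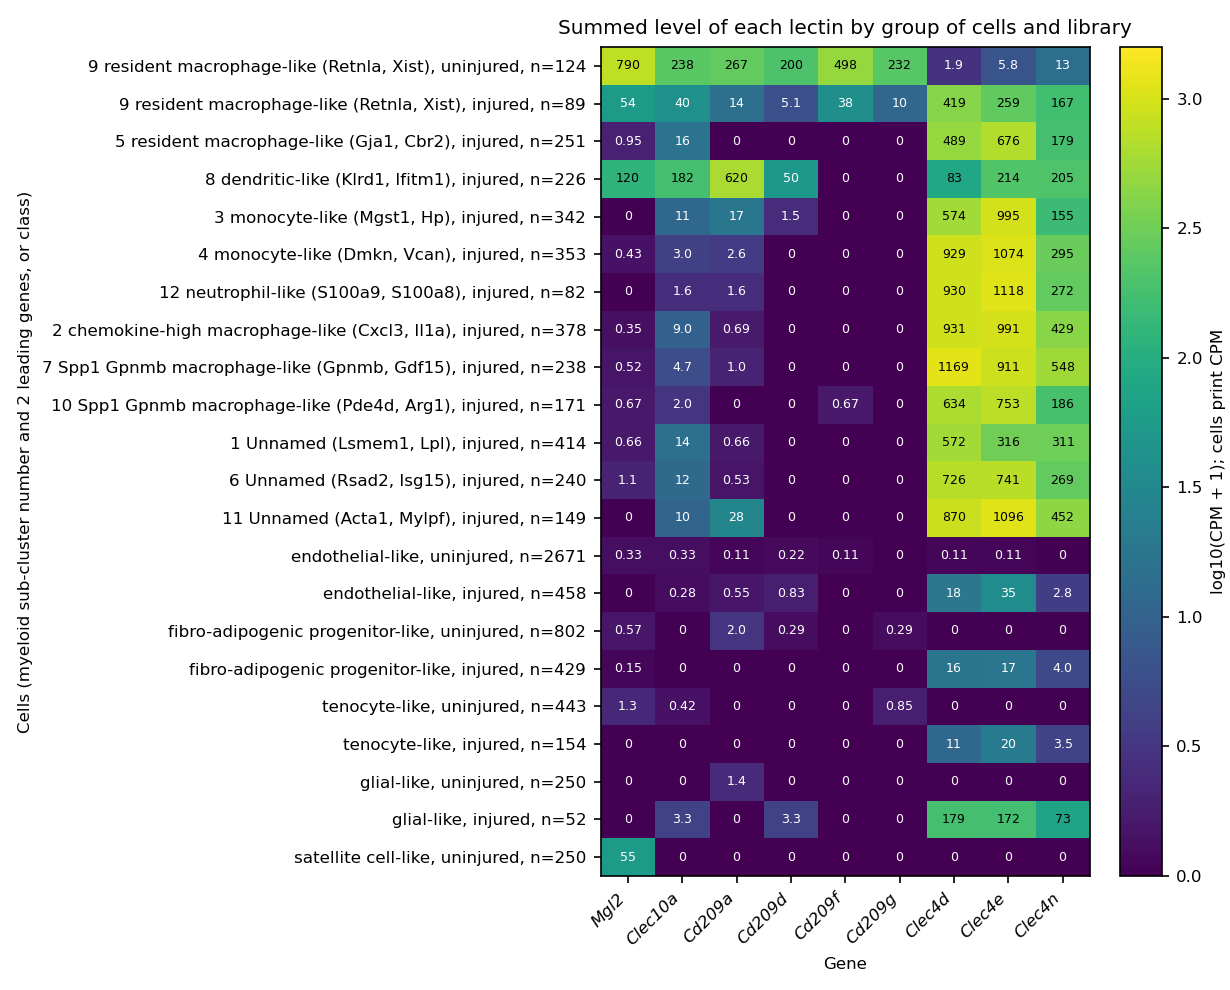
Heat map of the summed level of the 9 receptors (columns) in myeloid sub-clusters and in other classes of cells, each by library (rows, with the number of cells, n); each tile prints the CPM and its colour follows log10(CPM + 1). Mgl2, Clec10a and the 4 Cd209 genes are bright in uninjured sub-cluster 9, and all of these but Cd209f and Cd209g in dendritic-like sub-cluster 8, while Clec4d, Clec4e and Clec4n are bright in all 12 groups of injured myeloid cells drawn.

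The galactose-type receptors Mgl2 and Clec10a were highest in sub-cluster 9 of the uninjured library, 124 resident macrophage-like cells led by Retnla, Xist and Lyz1. Mgl2 was at 789.5 CPM there (715 to 869.7) and had a UMI in 94 of the 124 cells. The injured cells of the same sub-cluster, 89 cells, had 53.8 CPM (38.8 to 72.8) with Mgl2 in 9 cells. The second place of Mgl2 was sub-cluster 8, 226 injured dendritic-like cells led by Klrd1, Ifitm1 and Ccr7, with 120.5 CPM (105 to 138). In the other 12 sub-clusters of injured cells it did not exceed 1.06 CPM.

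Clec10a was spread more widely. It had 238 CPM (198 to 284) in uninjured sub-cluster 9, 182 (163 to 203) in sub-cluster 8 and 39.7 (27.0 to 56.4) in injured sub-cluster 9. The intervals of the first pair overlap. Low sums of Clec10a, above those of Mgl2, were seen in most injured sub-clusters, such as 15.7 CPM (10.8 to 22.0) in sub-cluster 5, resident macrophage-like cells led by Gja1 and Cbr2, where 26 of 251 cells had a UMI.

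The Cd209 genes split into pairs. Cd209a and Cd209d were counted in both the uninjured resident macrophage-like cells and the injured dendritic-like cells, and Cd209f and Cd209g in the macrophage-like cells alone of these. Cd209a was at 619.7 CPM (584 to 657) in sub-cluster 8, where 130 of 226 cells had a UMI and 1 cell had 58. It was at 267 (224 to 315) in uninjured sub-cluster 9, where 33 of 124 cells had it. Cd209d showed the reverse order, with 199.8 CPM (163 to 242) in uninjured sub-cluster 9 and 50.2 (40.4 to 61.7) in sub-cluster 8.

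Cd209f had 498 CPM (439 to 562) and Cd209g 232 CPM (193 to 278) in uninjured sub-cluster 9. Sub-cluster 8 had 0 UMIs of either in 226 cells, which at 3 counts of the total allows a share of cells with a UMI of up to 1.33% (exact interval to 1.62%). The 259 UMIs of Cd209f in sub-cluster 9 came from 23 cells, 1 of them with 62, while the 411 UMIs of Mgl2 came from 94 cells, the highest with 23. Among injured cells, Cd209f was seen in 6 and Cd209g in 5 of the 89 cells of sub-cluster 9, and elsewhere in the injured myeloid cells only 1 UMI of Cd209f (sub-cluster 10) was found.

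In the uninjured monocyte and macrophage-like class Clec4d, Clec4e and Clec4n were at 1.82, 34.6 and 12.7 CPM. In the injured library they were high in monocyte-like, macrophage-like and neutrophil-like cells alike. The uninjured library held no neutrophil-like cells, and most injured sub-clusters held no uninjured cells, so no uninjured level stands beside those. Clec4e was not near 0 in the few uninjured monocyte-like cells, given below. Clec4d was highest in sub-cluster 7, macrophage-like cells led by Gpnmb and Gdf15, with 1169 CPM (1121 to 1218) and a UMI in 236 of 238 cells. Next came chemokine-high sub-cluster 2 (Cxcl3, Il1a) with 931 (896 to 967), neutrophil-like sub-cluster 12 with 930.0 (856 to 1009) and monocyte-like sub-cluster 4 (Dmkn, Vcan) with 929 (889.9 to 969). These 3 do not differ beyond their intervals. Among sub-clusters with at least 40 injured cells, Clec4d was lowest in dendritic-like sub-cluster 8, at 82.6 CPM (69.8 to 97.0). Dendritic-like sub-cluster 14, only 19 injured cells, was lower still, at 6.58 CPM (0.167 to 36.7) from 1 UMI.

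Clec4e ran in another order. It was highest in the neutrophil-like cells at 1118 CPM (1037 to 1205), in the unnamed sub-cluster 11 at 1096 (1032 to 1163) and in monocyte-like sub-cluster 4 at 1074 (1032 to 1118), which overlap. Apart from sub-cluster 14, with 3 UMIs and 19.7 CPM (4.07 to 57.7), it was lowest in sub-cluster 8 at 214 (193 to 236) and in injured sub-cluster 9 at 259 (224 to 297), whose intervals also overlap. Sub-cluster 12 also held erythroid markers (6 of 8 detected, 4523 CPM summed, Slc4a1 among those at 0), and sub-cluster 11 muscle fibre markers (9 of 10, 1446 CPM, Myh2 at 0). The part of either in these levels was not tested.

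Clec4n ran from 155 CPM (138 to 173) in monocyte-like sub-cluster 3 (Mgst1, Hp) to 548 (516 to 582) in sub-cluster 7, leaving aside sub-cluster 14 with 1 UMI. Its level in dendritic-like sub-cluster 8, 205 CPM (184 to 227), was not lower than in macrophage-like sub-cluster 5, at 179 (161 to 198), and the intervals overlap. In the uninjured library, 16 of the 19 Clec4e UMIs of the monocyte and macrophage-like class lay in sub-cluster 3. There 12 uninjured monocyte-like cells had 352 CPM (201 to 572), with a UMI in 7. The 342 injured cells of that sub-cluster had Clec4e at 995 CPM (951 to 1039.8). Clec4d and Clec4n had 0 UMIs in those 12 cells.

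Set side by side over the whole monocyte and macrophage-like class, 134 uninjured and 2485 injured cells, 6 of the 9 receptors were at least 2-fold lower in the injured library and 3 were at least 2-fold higher. Of all 10159 genes with at least 20 UMIs in the class, 23.4% were at least 2-fold lower and 8.47% at least 2-fold higher. The median log2 ratio of injured over uninjured was -6.36 over the receptors and -0.17 over all these genes. The class was made of different cells in the libraries: 118 of the 134 uninjured cells were in cluster 18 (Retnla, Folr2, Cd163), which held 44 injured cells, and most injured cells were in clusters 2 (Ppbp, Pf4), 4 (Il1a, Cxcl3) and 5 (Hp, Ifitm6).

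In that class Mgl2 had 701 CPM in the uninjured and 1.58 CPM in the injured library, 443-fold lower (304 to 671). Clec10a went from 229 to 10.5 CPM and was 21.9-fold lower (17.4 to 27.6). The uninjured level was the higher one for both galactose-type receptors, by very unequal folds.

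Among the Cd209 genes, Cd209a had 237 and 2.89 CPM, 81.9-fold lower (59.1 to 115), and Cd209d 178 and 0.273 CPM, 654-fold lower (271 to 2059.8). Cd209f had 475 and 1.69 CPM, 281-fold lower (193 to 422), and Cd209g 222 and 0.436 CPM, 509-fold lower (250.3 to 1206). The injured sums rest on few UMIs, 5 for Cd209d and 8 for Cd209g. That of Cd209f was 31 UMIs in 7 cells, 12 of them in 1 cell. That of Mgl2 was 29 UMIs in 12 cells, 16 of them in 1 cell. The intervals do not cover such unevenness between cells. The size of the difference depended on the clustering for Mgl2, Clec10a, Cd209a and Cd209d. The dendritic-like class kept apart here, 412 injured and 5 uninjured cells, had 3 of 14 dendritic markers present at the limits used for naming but 15 of 16 monocyte and macrophage markers. With its cells added, the log2 ratio was -5.83 in place of -8.79 for Mgl2, -3.12 in place of -4.45 for Clec10a, -2.11 in place of -6.36 for Cd209a and -5.30 in place of -9.35 for Cd209d. It was -8.28 in place of -8.13 for Cd209f and -9.14 in place of -8.99 for Cd209g. A clustering that used the lectins, whose class held 2887 injured cells, gave -5.84, -3.12, -2.12 and -5.30 for the first 4.

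The other 3 receptors went the opposite way. Clec4d had 1 UMI (1.82 CPM) in the uninjured and 752 CPM in the injured library, 413-fold higher (74.1 to 16311). Clec4e had 34.6 and 787 CPM, 22.8-fold higher (14.6 to 37.8), and Clec4n 12.7 and 289 CPM, 22.7-fold higher (11.0 to 56.5). The folds of Clec4e and Clec4n in the class are alike within their intervals, but their uninjured sums came from different cells. Of the 19 uninjured Clec4e UMIs, 16 lay in 12 monocyte-like cells, while the 7 of Clec4n lay in sub-cluster 9. The fold of Clec4d is fixed only to a wide range by its single uninjured UMI. With that UMI raised to a floor of 3, as in all log2 ratios given, the log2 ratio of Clec4d was 7.10.

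**Figure D2:**
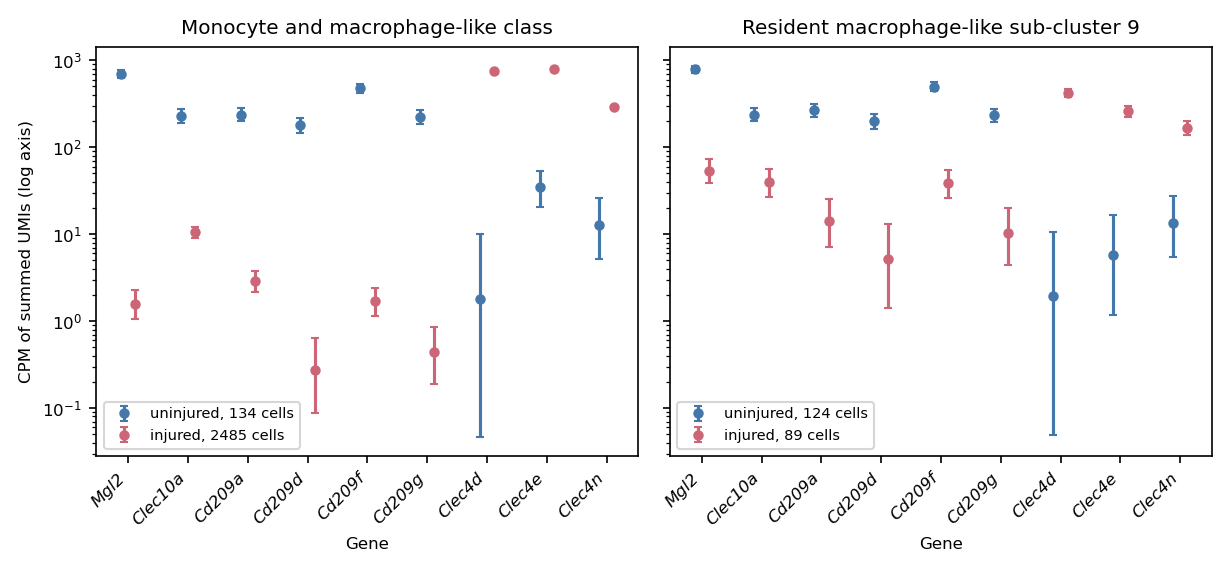
Summed level (CPM, log axis) of the 9 receptors in the uninjured and injured library, in the monocyte and macrophage-like class (left) and in sub-cluster 9 (right); points are sums over the cells given in the key, and bars are exact 95% Poisson intervals, which cover counting error only. The first 6 genes lie lower and the last 3 higher in the injured library in both panels, with a smaller gap for the first 6 on the right.

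Sub-cluster 9 was the only one with at least 40 cells of each library, so the libraries could be compared within it. Its markers still differed between the libraries, as given below. The same 6 receptors were at least 2-fold lower and the same 3 at least 2-fold higher in its injured cells. Of the 5747 genes with at least 20 UMIs there, 12.4% were at least 2-fold lower and 14.4% at least 2-fold higher. Mgl2 was 14.7-fold lower (10.7 to 20.7), Clec10a 5.99-fold (4.02 to 9.20), Cd209a 18.9-fold (10.3 to 38.8), Cd209d 39.0-fold (14.8 to 146), Cd209f 12.9-fold (8.85 to 19.6) and Cd209g 22.7-fold (11.1 to 53.7). With cells thinned to 1800 UMIs, the log2 ratio was -3.55 in place of -5.28 for Cd209d, -3.05 in place of -3.69 for Cd209f and -3.46 in place of -4.50 for Cd209g. In a thinned draw, 2 of the 89 injured cells had a UMI of Cd209d, 2 of Cd209f and 0 of Cd209g. Injured counts under 3 were raised to 3, so these thinned sizes can be set by that floor. As a mean of per-cell CPM the log2 ratio was -2.78 for Cd209f. Mgl2 was at -4.45 in place of -3.87 when only cells also in the macrophage-like class were kept. Without thinning, 1 injured cell held 16 of the 42 UMIs of Mgl2, and 1 held 12 of the 30 of Cd209f. Clec4d, with 1 UMI in the uninjured cells and 419 CPM in the injured cells, was 218-fold higher (38.9 to 8644). Clec4e, with 5.76 and 259 CPM, was 44.9-fold higher (15.2 to 219.7), and Clec4n, with 13.4 and 167 CPM, 12.4-fold (5.85 to 31.4).

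Markers of other cells moved with the libraries in sub-cluster 9. The resident macrophage list (11 of 11 detected in both) summed to 4741 CPM in its uninjured and 7943 CPM in its injured cells, and the chemokine-high list to 1487 (11 of 12, Inhba at 0) and 13678 (12 of 12). The dendritic list summed to 352 CPM (10 of 14, with Xcr1, Ccr7, Ccl22 and Ffar2 at 0) and 174 CPM (10 of 14, with Flt3, H2-Oa, Ffar2 and Klrd1 at 0). The endothelial list was at 1754 and 487 CPM, 12 of 12 detected in both. Without thinning, the antigen presentation gene H2-Ab1 was in 92.7% of the uninjured and 61.8% of the injured cells, and Ccr2 in 70.2% and 46.1%. Folr2 was in 37.1% and 57.3%, and Lyve1 in 22.6% and 21.3%. Xist, counted only in the uninjured library, was not left out of this sub-clustering. The part of any of these in the differences was not tested.

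At an equal depth of 1800 UMIs a cell, the shares of cells with Mgl2 and with Clec4d ran in the same order over these groups as the CPM. Mgl2 had a UMI in 61.3% of uninjured cells of sub-cluster 9, in 4.49% of its injured cells and in 11.1% of sub-cluster 8. Clec4d had a UMI in 0.806%, 53.9% and 11.9% of these. Without thinning, the Mgl2 shares were 75.8%, 10.1% and 17.3%, and the Clec4d shares 0.806%, 86.5% and 31.4%. For Clec4e the order of injured sub-cluster 9 and sub-cluster 8 differed, at 22.5% and 24.8% after thinning but 44.9% and 41.6% without.

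**Figure D3:**
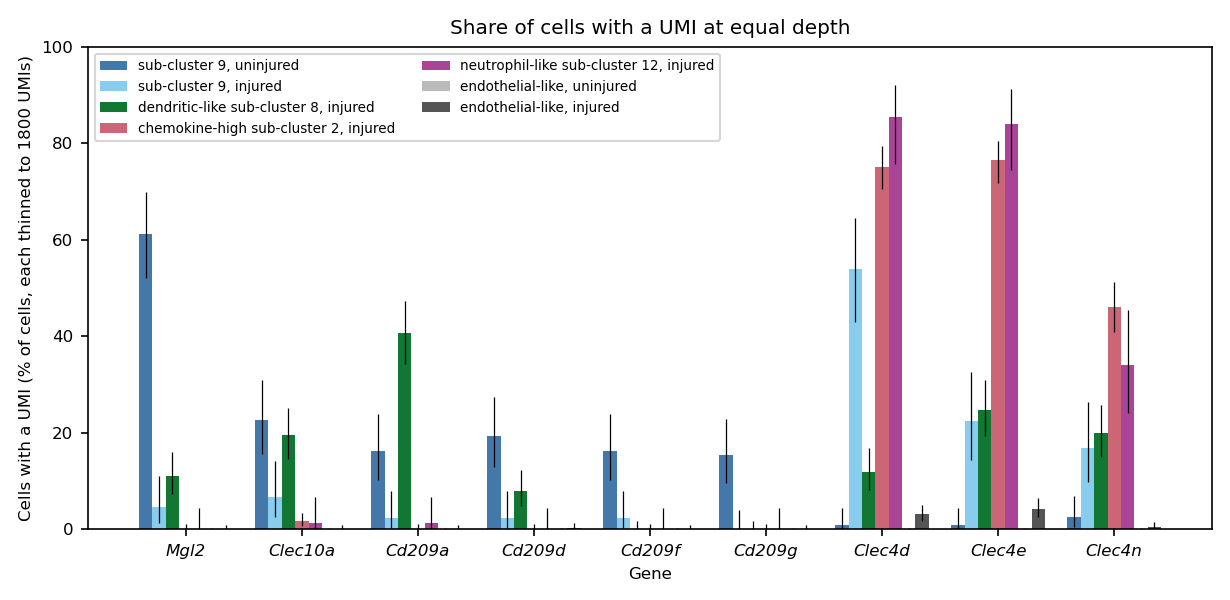
Share of cells with at least 1 UMI of each receptor after each cell was thinned to 1800 UMIs, in 5 groups of myeloid cells and in endothelial-like cells of both libraries as a measure of background; bars start at 0 and error bars are exact 95% binomial intervals. Mgl2 reaches 61.3% in uninjured sub-cluster 9, Cd209a 40.7% in dendritic-like sub-cluster 8, and Clec4d 85.4% in neutrophil-like sub-cluster 12.

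Over all cells kept the picture differed. The cell makeup of the libraries also differed, and its part in this was not tested. Mgl2 (23.0 and 7.36 CPM), Cd209f (12.8 and 0.845) and Cd209g (6.10 and 0.218) were still at least 2-fold lower in the injured library. Clec10a (6.34 and 14.8 CPM) and Cd209a (7.27 and 32.7) were now at least 2-fold higher, as were Clec4d, Clec4e and Clec4n. Cd209d, at 5.22 and 2.78 CPM, was within 2-fold. So 3 of 9 were lower and 5 of 9 higher, beside 38.7% and 11.9% of 14470 genes.

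The receptors of the uninjured resident macrophage-like cells did not all lie in the same cells. All 23 cells with Cd209f also had a UMI of Folr2, a folate receptor of resident macrophages, and so did all 21 cells with Cd209g, while 46 of the 124 cells (37.1%) had Folr2. Of the 33 cells with Cd209a, 11 had Folr2 (33.3%, 18.0 to 51.8). Lyve1, a hyaluronan receptor of macrophages beside vessels, was in 16 of the 23 cells with Cd209f (69.6%, 47.1 to 86.8) and in 28 of the 124 (22.6%).

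Cd209d was found with both of the others, in 23 of the 33 cells with Cd209a (69.7%, 51.3 to 84.4) and in 18 of the 23 with Cd209f (78.3%, 56.3 to 92.5). Cd209a was in 23 of the 38 cells with Cd209d (60.5%, 43.4 to 76.0) and in 8 of the 23 with Cd209f (34.8%, 16.4 to 57.3), whose intervals overlap. Cd209f and Cd209g shared 18 cells, of 23 and 21. Ccr2, the receptor by which monocytes enter tissue, was in 10 of the 23 cells with Cd209f (43.5%, 23.2 to 65.5) and in 87 of all 124 (70.2%). Mgl2 was in most cells with any of the other 5, from 88.9% of those with Clec10a to 93.9% of those with Cd209a, and in 75.8% of all. Cells with Cd209f had a median of 3755 UMIs, and all cells of the group 3782, so they were not deeper, but those with Cd209a had 4549.

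**Figure D4:**
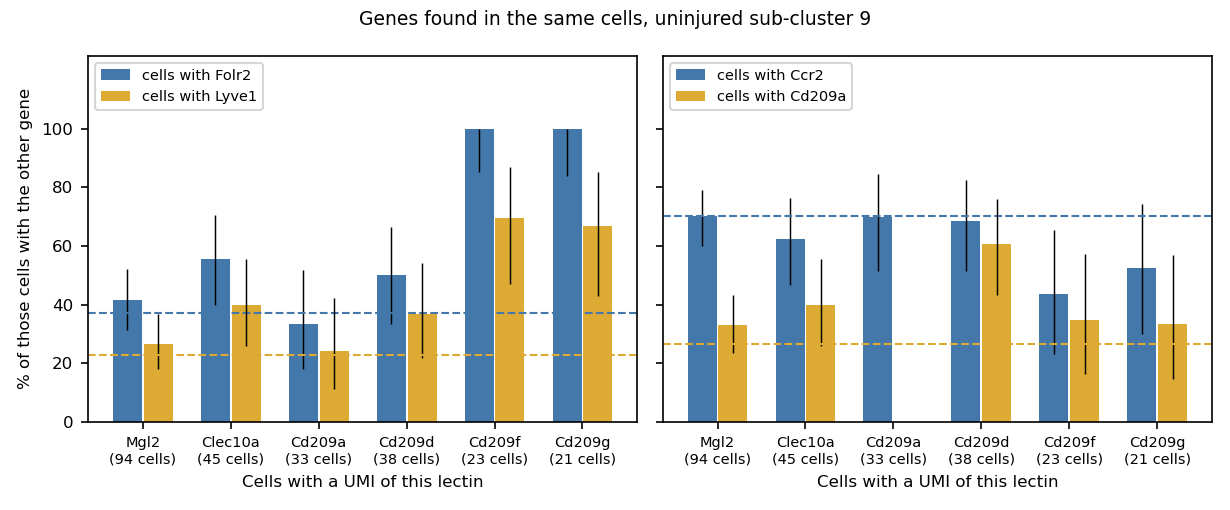
Share of uninjured sub-cluster 9 cells with a UMI of a given lectin (x axis, with the number of such cells) that also had a UMI of Folr2 or Lyve1 (left) or of Ccr2 or Cd209a (right); bars start at 0, error bars are exact 95% binomial intervals, and dashed lines give the share among all 124 cells. All cells with Cd209f or Cd209g had Folr2, and Cd209a, which is not plotted against itself, stays near the Folr2 line.

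In dendritic-like sub-cluster 8, Cd209d lay almost wholly within the Cd209a cells, with 37 of its 40 cells having Cd209a (92.5%, 79.6 to 98.4), against 130 of 226 (57.5%) in all. Clec10a was in 76 of the 130 Cd209a cells (58.5%, 49.5 to 67.0), against 44.2% in all. Mgl2 was in 28 (21.5%, 14.8 to 29.6), against 17.3% in all, which lies within that interval. Klrd1, a lectin-like receptor better known from natural killer cells and one of the dendritic markers used, was in 92 of the Cd209a cells (70.8%, 62.2 to 78.4). In all cells of the sub-cluster its share was 58.8%. This sub-cluster had 13 of 14 dendritic markers detected, at 1547 CPM summed with Xcr1 at 0, but also all 16 monocyte and macrophage markers at 9348 CPM. Only 4 of the dendritic markers reached the presence limits used for naming.

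Outside myeloid cells, Mgl2 stood out in 1 class. In the uninjured library 46 of 250 satellite cell-like cells, the stem cells of muscle, had an Mgl2 UMI (18.4%, 13.8 to 23.8), at 54.9 CPM (40.6 to 72.5) and at most 2 UMIs a cell. In uninjured endothelial-like cells the share was 0.112% (3 of 2671), with medians of 3266 and 2796 UMIs a cell, and after thinning the shares were 11.6% and 0.0749%. Clec10a, Cd209d and Cd209f had 0 UMIs in all 250 satellite cell-like cells.

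The 46 cells with Mgl2 had Pax7 in 34 and Myf5 in 31, both regulators of muscle stem cells. Of macrophage genes, C1qb, C1qc, Lyz2 and Csf1r had 1 UMI each in the 46 cells, and Cd68 had 0. C1qa and Adgre1 had 0 UMIs in all 250 satellite cell-like cells, so their absence does not set the 46 apart. All 16 macrophage markers summed to 52.8 CPM in the 46 cells and to 45.5 CPM in the other 204. The injured library held 10 satellite cell-like cells with 1 Mgl2 UMI, too few to set beside these.

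Clec4d, Clec4e and Clec4n were also counted at low levels in injured cells that are not myeloid. Clec4d was at 17.7 CPM (13.6 to 22.6) in endothelial-like, 16.1 (13.2 to 19.4) in fibro-adipogenic progenitor-like and 11.0 (6.88 to 16.6) in tenocyte-like cells, against 752 in the monocyte and macrophage-like class. It had 1 UMI or none in each of these classes in the uninjured library. Macrophage markers in these injured classes (16 of 16 detected) summed to 359, 390.4 and 433 CPM, and in the uninjured ones (14, 14 and 12 of 16) to 61.7, 155 and 164 CPM, and the part of these in the lectin counts was not tested. In the 52 injured glial-like cells the level of Clec4d was 179 CPM (134 to 233), but all 54 UMIs lay in 9 cells and 19 of them in 1. All 16 macrophage markers were detected in those 52 cells, at 2647 CPM summed, and in the 250 uninjured glial-like cells 9 of 16 at 4249 CPM, with Csf1r and Adgre1 at 0.

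Of 22 signalling genes listed for Clec4d, Clec4e and Clec4n, 21 had at least 20 UMIs in the monocyte and macrophage-like class. Of these, 12 were within 2-fold, 7 at least 2-fold lower and 2 at least 2-fold higher, with a median log2 ratio of -0.09. Of all 10159 genes measured in the class, 23.4% were at least 2-fold lower and 8.47% at least 2-fold higher. Fcer1g, the shared signalling chain, had 2159.9 and 3139 CPM, 1.45-fold higher (1.37 to 1.54), and Syk 92.9 and 77.6 CPM, 1.20-fold lower (0.887 to 1.58). Card9 was low in both, at 5.46 and 7.91 CPM. Among the highest ratios were those of the protease Malt1, 3.83-fold higher (1.63 to 11.8), of Bcl10, 1.83-fold (1.40 to 2.44), and of Tyrobp, 1.52-fold (1.44 to 1.61). The lowest were Rasgrp3, 23.4-fold lower (10.9 to 48.6), Cblb, 3.76-fold (1.66 to 7.49), Nfatc2, 3.01-fold (1.40 to 5.74), and Nfatc1, 2.77-fold (1.55 to 4.61).

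Of 33 other C-type lectins, 16 had at least 20 UMIs in the class. Of these, 3 were at least 2-fold lower and 6 at least 2-fold higher, beside 23.4% and 8.47% of all 10159 genes. Their median log2 ratio was -0.09. The lowest were Clec4b1, 226 and 24.2 CPM, 9.32-fold lower (7.58 to 11.4), Colec12, 8.51-fold (4.25 to 15.9), Clec2i, 3.16-fold (1.40 to 6.26), and the mannose receptor Mrc1, 1.90-fold (1.67 to 2.15). Among the highest were Cd69, 13.5-fold higher (2.42 to 536), Olr1, 6.96-fold (1.92 to 57.7), and Cd93, 2.41-fold (1.74 to 3.45). Mrc1, often named beside Mgl2 and Clec10a as a macrophage receptor, was thus within 2-fold of its uninjured level. In sub-cluster 9 it had 496 and 423 CPM, 1.17-fold lower (0.992 to 1.38), where Mgl2 was 14.7-fold lower. Cd209b, a further Cd209 gene named after its values were seen, had 16 UMIs in the uninjured and 0 in the injured class. This is under the limit of 20 UMIs, so Cd209b is not among the 16 measured. Against a floor of 3 UMIs in the injured sum it was at least 178-fold lower.

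Over 23 sums by class or sub-cluster and library, the members fell into 2 sets with like patterns. Pearson's r of log2(CPM + 10) was 0.96 to 0.99 among Clec4d, Clec4e and Clec4n. Among the other 6 it ran from 0.56 for Cd209a with Cd209f to 0.99 for Cd209f with Cd209g, and between the sets from -0.24 to 0.31. Cd209a was as near to Clec10a (0.91) as to Cd209d (0.88), and Cd209d was near to Mgl2 (0.90), Clec10a (0.89) and Cd209g (0.85) as well. Other genes were ranked by likeness only if they had at least 200 UMIs over all cells kept. Those most like Mgl2 were H2-DMb2 (r 0.87), Retnla (0.81), Ccl17, Calm4 and Batf3 (0.80 each). Those most like Cd209a were H2-DMb2 (0.97), Irf4 (0.95), Klrk1 (0.90), Klrd1 (0.89) and Ccl17 (0.84). Those most like Clec4e were Nlrp3 and Il1rn (0.98 each), Gm6377, Ell2 and Il1b (0.97 each). The 23 points share libraries and depth, and some of these genes are markers by which the cells were named.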

How the data were processed

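Raw UMI counts of 2 single-cell 3' libraries of mouse muscle, 1 uninjured and 1 injured by sample title, were analysed. Per the submitters' processing notes, the authors used Cell Ranger 2.1.1 with mm10. The deposited values were whole-number counts per gene and barcode without normalization, for barcodes already selected. No source used here gives the annotation release. Counts of rows with 1 symbol were added.

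Barcodes under 200 genes (178 uninjured, 64 injured) were left out, as were those with over 20% of UMIs mitochondrial (18 and 4). Scrublet's automatic threshold marked 1 barcode a library and so did not work, and the top scores at 0.8% per 1000 barcodes (249 and 161) were left out instead. Cells were clustered without any listed C-type lectin (2000 variable genes, 30 components, 15 neighbours, Leiden resolution 1, seed 0) into 31 clusters, and myeloid-like ones again into 14. A marker was present at 20% of cells and 2 times the median over clusters. The list with most of its markers present gave the name, unless another led the top 10 genes, and under 3 present markers, or a tie among sub-clusters, gave none. This rule was set after the data were seen.

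UMIs were summed by cells and library as CPM, with exact Poisson, conditional binomial and Clopper-Pearson intervals at 95%. In log2 ratios, and in folds against a count of 0, the lower count was raised to 3 where it was under 3, and other folds and their intervals used the counts as they were. Thinning to 1800 UMIs left out no cell. No count model or p-value was used. The members and lists were chosen with earlier results of these data known. All members are named. Of the other lists the 4 highest and 4 lowest ratios are named, except for genes that are not reported here, and for likeness 5 genes each for Mgl2, Cd209a and Clec4e. Fcer1g, Syk, Card9, Folr2, Lyve1, Ccr2, H2-Ab1 and Klrd1 were named for their known roles, with values in view. Depth, 22994502 and 39014762 UMIs, limits small sums most. Python 3.11.15, scanpy 1.11.5, leidenalg 0.10.2, scipy 1.17.1 and Biopython 1.88 were used, and the ratios were tested on simulated data.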

Additional observations from a re-analysis of the deposited data

How the results depend on the processing

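Over the 11 planned settings and 2 chosen after seeing the data, a clustering without sex-linked genes and the dendritic-like cells added to the class, 6 receptors were at least 2-fold lower and 3 at least 2-fold higher in the injured monocyte and macrophage-like cells in each, and no direction was reversed. Sizes moved: over all settings the log2 ratio ran from -9.91 to -5.82 for Mgl2, -4.85 to -3.07 for Clec10a, -6.51 to -2.11 for Cd209a, -9.42 to -5.30 for Cd209d and, with the uninjured count raised to 3 where lower, 5.95 to 7.11 for Clec4d. Without doublet removal the class held 2976 injured cells, and the ratio of Cd209a was -2.12. Without sex-linked genes in the clustering it was -3.77, and that of Mgl2 -7.08. The share of receptor UMIs in injured myeloid-like cells, 98.0%, was 96.2% without doublet removal, 98.3% with thinned cells, 93.9% with every barcode kept, 94.6% with cells named by their own score, 97.7% with the lectins in the clustering and 97.1% without sex-linked genes. Of the other C-type lectins 3 were lower, but 6 were without doublet removal, 6 with every barcode kept, 6 with cells named by their own score, 5 with the lectins in the clustering, 5 with the dendritic-like cells added and 12 when genes with 1 UMI counted. Of them 6 were higher, but 3 with every barcode kept and 3 with cells named by their own score. The cause of these changes was not tested. In the main setting 16 of the 33 other lectins were measured. Of all 10159 genes measured there, 23.4% were at least 2-fold lower and 8.47% at least 2-fold higher. Those shares were not taken for the other settings. A limit of 1 UMI lets more of the 33 count, so the 12 cannot be set beside the 3. No paired analysis was possible because each group has 1 library. Few uninjured myeloid cells (139) limit every ratio, and names, doublets and free RNA can shift low sums.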

Other observations

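Among the 89 injured cells of sub-cluster 9, receptors of both patterns were found in the same cells. Clec4d was in 77 of the 89 (86.5%), in 7 of the 9 cells with Mgl2 and in all 5 cells with Cd209g, but Cd209f was in none of the 9 Mgl2 cells, whose exact interval reaches 33.6%. The 5 uninjured dendritic-like cells held 28 UMIs of Mgl2 and 10 of Cd209a, each in 2 cells, too few to describe that class in uninjured muscle.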
